A study of Rattus norvegicus with 8 samples.

Results

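The genes described here are 9 immediate early genes, the rat genes that neurons and other cells switch on first after a stimulus. They were taken as 9 rows of the 32883 in a table of transcript counts, by Ensembl identifier: Fos (ENSRNOG00000008015), Fosb (ENSRNOG00000046667), Jun (ENSRNOG00000026293), Junb (ENSRNOG00000042838), Jund (ENSRNOG00000019568), Egr1 (ENSRNOG00000019422), Arc (ENSRNOG00000043465), Nr4a1 (ENSRNOG00000007607) and Dusp1 (ENSRNOG00000003977). The tissue was lower spinal cord from rats of the Sprague Dawley strain, which had received a hemisection, a cut through one side of the cord, at T9. All 8 libraries were made 23 days after that injury, from cord below it that the series describes as intact. In 4 libraries (trained 1 to 4) the rats had been trained after the injury and in 4 (untrained 1 to 4) they had not. There is no library from an uninjured rat. The sources used here do not give the form of the training, the time from the last session to death, or the sex, age and number of animals behind a library. The p-values thus reflect only how far these libraries scatter, which may be technical.

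Immediate early genes need no new protein to be transcribed: kinases activate factors already bound at their promoters, and their messages appear quickly and decay quickly. In the spinal cord, Fos and Egr1 are widely used as marks of recently active neurons, yet injury, handling and tissue removal can also raise them, and glia and vessels express several of them. FOS and JUN proteins pair as AP-1, a factor that binds DNA as a dimer. EGR1 and NR4A1 are transcription factors of other families, ARC is a synaptic protein, and DUSP1 is a phosphatase that switches off the kinases which induce these genes.

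Libraries held between 192472 and 453390 UMIs (unique molecular identifiers, so that each captured RNA molecule is counted once). Trained 2, 3 and 4 (216786, 192472 and 212328 UMIs) were shallower than every untrained library, the shallowest of which, untrained 3, held 240895. Trained 1 held 400934. Depth thus largely went with training, and its part in the training contrast was not tested. Levels are given as CPM, that is UMI counts set to a common library size with TMM (trimmed mean of M values) scaling, so that 1 UMI counted as 2.22 CPM in untrained 4, the deepest library, and as 6.13 CPM in trained 3, the shallowest. A test across genes was made on the 4086 genes with enough counts. Of the 9 genes, 6 passed that filter (Jun, Junb, Jund, Egr1, Nr4a1 and Dusp1) and 3 (Fos, Fosb and Arc) did not. Since the libraries are bulk tissue, fewer cells of one type and less RNA per cell cannot be told apart. The lower cord itself was not checked against cell type markers, because the table names genes by identifier only and none of its identifiers matched the RefSeq gene table at hand.

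The promoters of 6 of the 9 genes were read from a table of RefSeq promoters (build GRCr8, whereas the counts were made on Rnor_6.0). Those of Fos, Jun and Arc were not analysed here. Shown are the 250 bases before the annotated start of Egr1 and Dusp1, the genes that passed edgeR's main test of the replicate number below, and of Jund, which varied least of the 6 tested genes. The Egr1 window is chr18:26736828-26737077 on the plus strand, that of Dusp1 is chr10:17184603-17184852 on the plus strand, and that of Jund is chr16:18769772-18770021 on the minus strand. Capitals mark matches, on either strand, to the cAMP response element TGACGTCA, to its half-site TGACG (which the full element contains), and to the CArG box at the core of the serum response element. The AP-1 letters TGANTCA were also searched and had no match in the 6 windows.
Egr1: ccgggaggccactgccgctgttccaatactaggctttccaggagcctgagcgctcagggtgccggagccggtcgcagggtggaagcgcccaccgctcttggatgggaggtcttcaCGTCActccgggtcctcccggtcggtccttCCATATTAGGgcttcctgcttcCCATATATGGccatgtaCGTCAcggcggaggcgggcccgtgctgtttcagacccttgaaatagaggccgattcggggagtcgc
Dusp1: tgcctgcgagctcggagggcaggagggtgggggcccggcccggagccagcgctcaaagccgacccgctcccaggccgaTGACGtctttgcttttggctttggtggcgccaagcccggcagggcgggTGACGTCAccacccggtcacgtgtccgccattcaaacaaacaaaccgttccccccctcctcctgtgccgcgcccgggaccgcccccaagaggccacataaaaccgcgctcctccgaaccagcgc
Jund: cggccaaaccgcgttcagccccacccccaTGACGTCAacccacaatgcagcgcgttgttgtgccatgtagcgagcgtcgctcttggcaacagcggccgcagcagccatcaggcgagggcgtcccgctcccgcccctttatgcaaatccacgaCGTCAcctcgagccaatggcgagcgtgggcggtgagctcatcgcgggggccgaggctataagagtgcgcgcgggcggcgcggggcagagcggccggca

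The Egr1 window held 2 CArG boxes, with 95 and 73 bases between them and the start, and 2 half-sites, at 130 and 61 bases. The Dusp1 window held 1 full element, 116 bases before the start, and 1 further half-site at 167 bases. The Jund window held 1 full element, at 213 bases, and 1 separate half-site at 93 bases. Of the windows not shown, that of Nr4a1 held 4 half-sites and that of Junb 1, without a full element or CArG box, and that of Fosb held no match. Among all 33469 RefSeq promoters cut to 250 bases, 1.59% held the full element, 18.2% the half-site, 1.50% a CArG box and 6.34% the AP-1 letters. A match is a description of the letters and not of a bound factor.

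**Figure D1:**
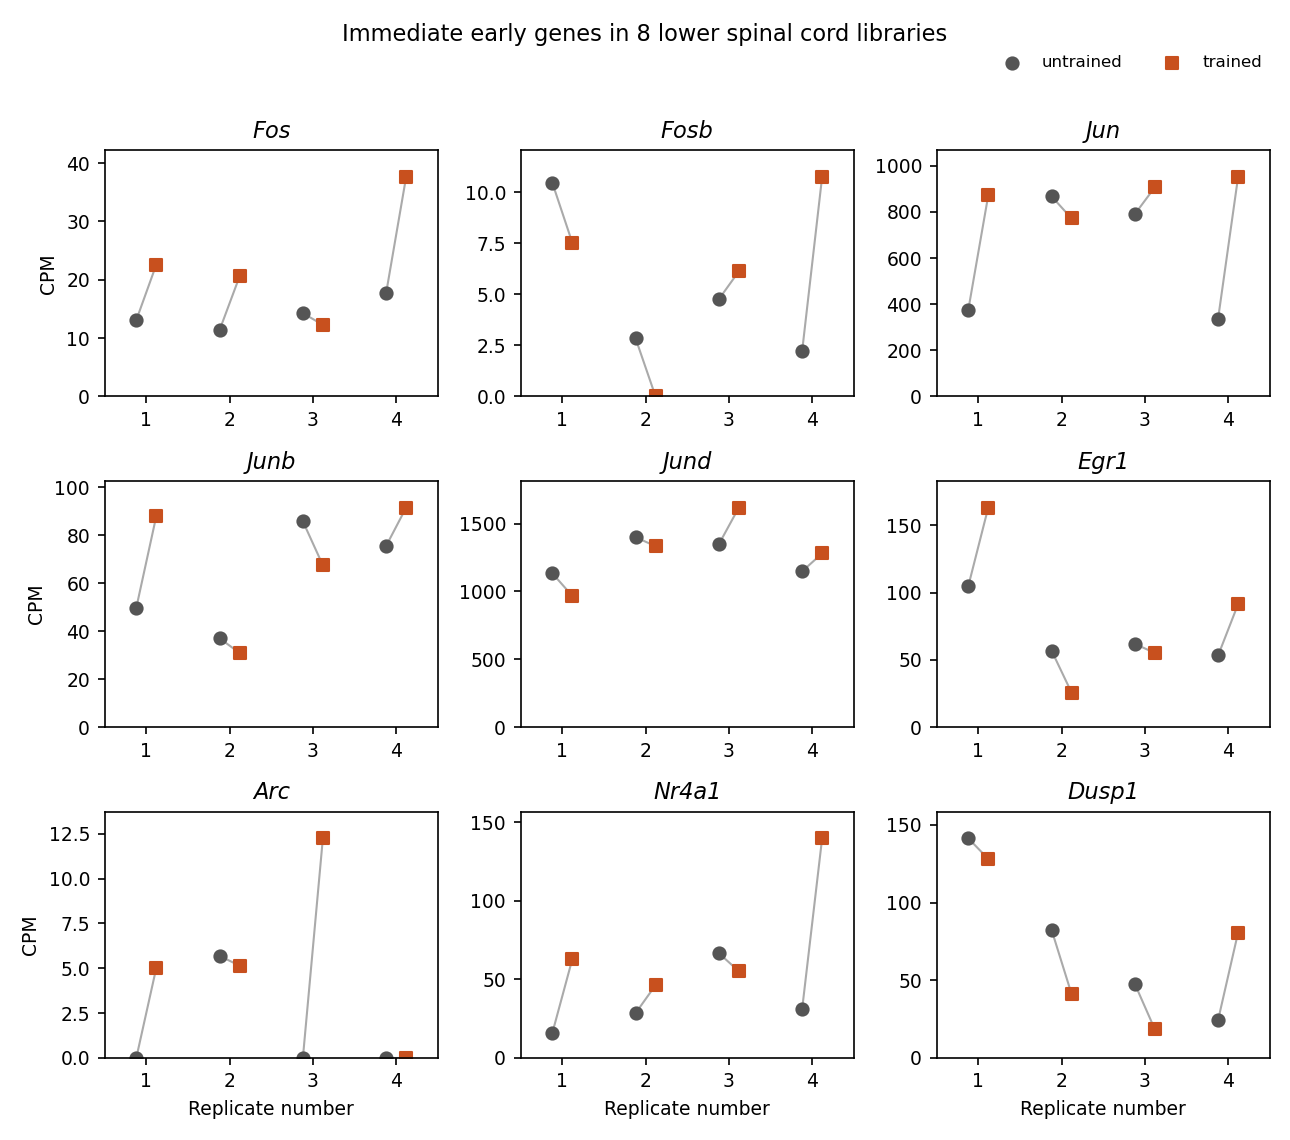
Level of each gene in CPM (linear axis from 0, a separate scale for each gene) against replicate number, with untrained libraries as grey circles and trained libraries as orange squares, and a grey line joining the libraries of one number. Untrained and trained points overlap for every gene, and Egr1 and Dusp1 are highest in number 1. Jun is higher in the trained library of numbers 1, 3 and 4, and Nr4a1 in that of numbers 1, 2 and 4.

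No immediate early gene differed between trained and untrained cords at the threshold used. The comparison asked whether training changed the transcriptome of the cord below the lesion, and 0 of the 6 tested genes passed an adjusted p of 0.05 in edgeR's quasi-likelihood test, as did 0% of all 4086 genes. The log2 fold change, trained minus untrained, ran from -0.02 for Dusp1 to 1.18 for Nr4a1. Of the 6, 5 had a positive value (83.3%), against 51.8% of all genes tested, and their median was 0.30 against 0.01. The size depended on the scale: as differences between group means of log2(CPM + 2), in which every library weighs the same, the median of the 6 was 0.08. The trained and untrained libraries overlapped for each of the 6 genes, while 1.10% of all tested genes had groups that did not overlap. When libraries of the same number were compared as pairs (the replicate number as a block in edgeR), again 0 of the 6 passed, against 0.0489% of all genes. At an unadjusted p under 0.05, edgeR gave 1 of the 6 without the block (Nr4a1) and 2 with it (Nr4a1 and Jun), against 52 and 171 of the 4086 genes. Nr4a1 passed the count filter mainly through its trained libraries, so shares of the 6, here and below, are not independent of that filter.

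Nr4a1, a nuclear receptor made quickly after calcium or cAMP signals, had the largest difference among the 6 tested genes. It passed the count filter mainly through the trained libraries, where it was higher, since most untrained libraries lay below the filter's level. Its place among the 6 is thus not independent of the difference itself. Untrained libraries 1 to 4 held 6, 10, 14 and 14 UMIs, or 15.7, 28.5, 66.7 and 31.1 CPM. Trained libraries 1 to 4 held 25, 9, 9 and 26 UMIs, or 62.8, 46.3, 55.1 and 139.9 CPM. Trained 4 stood highest and untrained 1 lowest, and untrained 3 lay above 3 of the 4 trained libraries. The means were 35.5 ± 21.8 CPM untrained and 76.0 ± 43.1 CPM trained (SD, n = 4 each). The log2 fold change was 1.18 ± 0.43 (SE; 2.27-fold, 95% interval 1.22 to 4.23), the gene ranked 11 of 4086 by p, and its edgeR adjusted p was 0.99998. Without trained 4 the log2 fold change was 0.76, and without untrained 3 it was 1.55. With the replicate block it was 1.27 ± 0.36 with an edgeR adjusted p of 0.649.

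Jun, the partner shared by most AP-1 dimers, was the other gene with an interval almost or wholly above no change. Untrained libraries 1 to 4 held 143, 305, 166 and 152 UMIs, or 374, 868, 790 and 337 CPM. Trained libraries 1 to 4 held 347, 150, 148 and 177 UMIs, or 871, 772, 907 and 952 CPM. The trained libraries lay close together, whereas untrained 1 and 4 lay far below the other 6 libraries and untrained 2 and 3 lay among the trained ones. The means were 592 ± 275 CPM untrained and 876 ± 76.6 CPM trained (SD, n = 4 each), with a log2 fold change of 0.57 ± 0.27 (SE; 1.49-fold, 95% interval 0.998 to 2.22, edgeR adjusted p = 0.99998). Without untrained 4 it was 0.37 and without untrained 1 it was 0.40. With the replicate block it was 0.68 ± 0.20, with an edgeR adjusted p of 0.649.

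Jun and Nr4a1 passed the paired test over all 4 pairs only in edgeR with the filter on low counts dropped. Then 2 of the 9 genes passed with the block in edgeR, against 0.138% of 13048 genes: Jun at a log2 fold change of 0.64 ± 0.14 (adjusted p = 0.00298) and Nr4a1 at 1.22 ± 0.30 (adjusted p = 0.0404). Without the block and without the filter, 0 of the 9 passed, against 0.0460% of genes. DESeq2 with the same block called neither gene, with an adjusted p of 0.99984 for both at log2 fold changes of 0.68 (Jun) and 1.18 (Nr4a1). With a minimum of 5 CPM in 4 libraries, chosen after seeing the data for this fit, the paired edgeR test called neither (adjusted p = 0.382 for both). In the unfiltered paired fit edgeR gave every gene practically the same residual spread, so that the SE hardly used the gene's own differences between pairs, whose SD was 0.79 for Jun and 1.10 for Nr4a1 on the log2 scale. Both calls ended without the libraries numbered 1 (edgeR adjusted p of 0.682 and 0.598) and without those numbered 4 (0.998 and 0.998). With the filter kept, Nr4a1 passed without the libraries numbered 3, at a log2 fold change of 1.72 (edgeR adjusted p = 0.0261). In that fit 8 of 4759 genes passed.

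Junb and Jund, the other JUN genes of AP-1, did not pass either and had smaller log2 fold changes, and no test compared them with Jun. Junb, which often restrains the activity of JUN, had 19, 13, 18 and 34 UMIs in untrained libraries 1 to 4 (49.8, 37.0, 85.7 and 75.5 CPM). It had 35, 6, 11 and 17 UMIs in trained libraries (87.9, 30.9, 67.4 and 91.4 CPM). Both libraries numbered 2 were the lowest of their group. Its log2 fold change was 0.22 ± 0.35 (SE), and the interval of 0.70-fold to 1.95-fold left out a doubling but held the 1.49-fold of Jun. With the replicate block the interval of Junb was 0.80-fold to 1.76-fold. Jund, the JUN gene that resting cells express, lay between 1134 and 1400 CPM in untrained and between 967 and 1618 CPM in trained libraries. It varied least, with 1.67-fold between its highest and lowest library. Its interval ran from 0.77-fold to 1.39-fold, and from 0.85-fold to 1.22-fold with the replicate block.

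Fos and Fosb, the partners of JUN in AP-1, were measured on few molecules. Fos, the classic mark of a recently active neuron, had 5, 4, 3 and 8 UMIs in untrained libraries 1 to 4 (13.1, 11.4, 14.3 and 17.8 CPM). It had 9, 4, 2 and 7 UMIs in trained libraries (22.6, 20.6, 12.3 and 37.7 CPM). Trained 1, 2 and 4 lay above all untrained libraries, and trained 3 lay below 3 of them. The counting interval of trained 4 alone, 15.1 to 77.6 CPM (exact Poisson, 95%, counting error only), reached down to the level of untrained 4. Group means were 14.1 ± 2.70 CPM untrained and 23.3 ± 10.6 CPM trained (SD, n = 4 each), and the exact permutation test (two-sided) gave p = 0.114, where 0.0286 is the smallest possible. In the edgeR fit with no filter the log2 fold change of Fos was 0.65, with a 95% interval of -0.41 to 1.71. That fit, like the unfiltered paired one, gave every gene practically the same residual spread, so the interval hardly used the scatter of Fos itself. Fosb had 4, 1, 1 and 1 UMIs in untrained and 3, 0, 1 and 2 in trained libraries. The difference between its groups was not detectable at this depth (exact permutation test on CPM, two-sided, p = 0.714).

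Egr1, a zinc finger factor induced through the serum response element, had 40, 20, 13 and 24 UMIs in untrained libraries 1 to 4 (104.7, 56.9, 61.9 and 53.3 CPM). It had 65, 5, 9 and 17 UMIs in trained libraries (163, 25.7, 55.1 and 91.4 CPM). Trained libraries held both the highest value (trained 1) and the lowest (trained 2), 6.35-fold apart. On the log2 scale trained exceeded untrained by 0.38 ± 0.40 (SE; edgeR adjusted p = 0.99998), a value that became -0.29 without trained 1. Its interval was 0.72-fold to 2.36-fold without the replicate block, and 0.82-fold to 1.82-fold with it, so that a doubling lay inside the first and outside the second.

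Arc, whose RNA travels to active synapses, lay near the limit of detection. It had 0, 2, 0 and 0 UMIs in untrained libraries 1 to 4 and 2, 1, 2 and 0 in trained ones. In the 4 libraries without a molecule, a count of 0 allowed up to 6.66 to 16.1 CPM (3 counts each). A difference between the groups was not detectable (exact permutation test on CPM, two-sided, p = 0.371), and the edgeR fit with no filter gave a log2 interval of -0.63 to 3.80. As for Fos, that interval hardly used the gene's own scatter.

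Dusp1, which removes phosphate from MAP kinases and so ends the signal that induces it, had the widest interval of the 6 tested genes without the replicate block (with it, that of Nr4a1 was widest). It had 54, 29, 10 and 11 UMIs in untrained libraries 1 to 4 (141, 82.5, 47.6 and 24.4 CPM) and 51, 8, 3 and 15 in trained ones (128, 41.2, 18.4 and 80.7 CPM). Both libraries numbered 1 lay above the other 6, and the lowest, trained 3, was 7.69-fold below the highest. Group means were 74.0 ± 50.9 CPM untrained and 67.1 ± 48.1 CPM trained (SD, n = 4 each). The log2 fold change was -0.02 ± 0.50 (SE), with an interval of 0.47-fold to 2.05-fold. With the replicate block the interval was 0.59-fold to 1.52-fold, so that a doubling lay inside the first and outside the second.

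**Figure D2:**
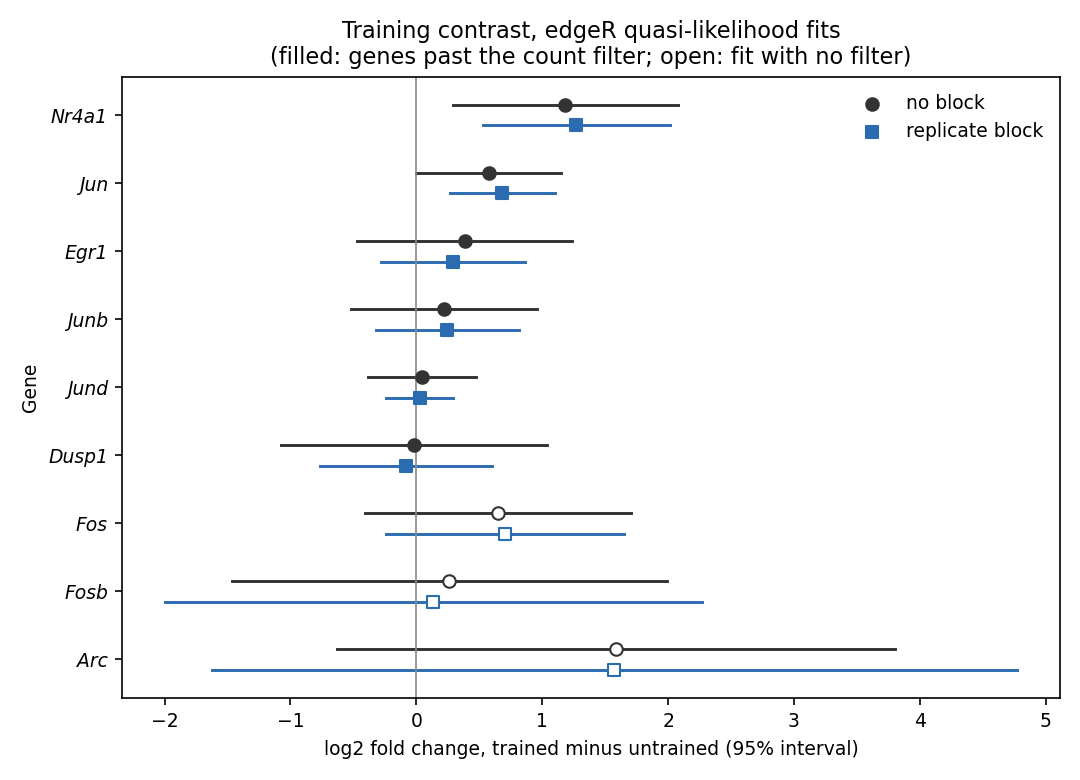
Log2 fold change, trained minus untrained, with its 95% interval, for each gene without (black circles) and with (blue squares) the replicate number as a block. Filled symbols are genes past the count filter and open symbols are the 3 genes below it, from the fit with no filter. The fits with no filter gave every gene practically the same residual spread, so open and filled intervals are not directly comparable. The intervals of Nr4a1 lie above 0 in both fits and that of Jun with the block only, and none of the filled values passed the adjusted test.

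Egr1 and Dusp1 differed between replicate numbers in edgeR's main test, as did many other genes, but not in every alternative. Replicate numbers are the numbers 1 to 4 that the sample titles give to 1 untrained and 1 trained library each. The meaning of a number is not stated in the labels. In a model with training and number, 2 of the 6 tested genes passed edgeR's test of the number (adjusted p = 0.0144 for Dusp1 and 0.0229 for Egr1), against 16.0% of all 4086 genes. With no filter 3 of the 9 passed, Jun in addition (edgeR adjusted p = 0.0163), against 6.32% of genes. That is the unfiltered fit in which a gene's own scatter was hardly used. For Jun the adjusted p was 0.221 in edgeR with the filter and 0.952 in DESeq2's likelihood ratio test. Relative to number 1, Egr1 was lower by log2 values of -1.51, -1.16 and -0.96 in numbers 2, 3 and 4. For Dusp1 these values were -1.03, -1.95 and -1.65. The 4 other tested genes did not pass, with edgeR adjusted p from 0.140 (Junb) to 0.288 (Nr4a1). In untrained 1 alone, Nr4a1 was at its lowest, on 6 UMIs, where Dusp1 was highest and Egr1 second highest. In trained 1 each of these genes lay above its own mean of log2(CPM + 2). The deviations there were 0.42 for Nr4a1, 1.25 for Egr1 and 1.14 for Dusp1.

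The libraries numbered 1, in which Dusp1 and Egr1 were highest, held 384167 and 400934 UMIs, and the deepest library, untrained 4, held 453390. With the log2 library total as a further term the edgeR adjusted p was 0.0989 for Dusp1 and 0.241 for Egr1. Over all 4086 genes the calls fell from 654 to 216 in that fit. The fit with the block had 3 residual degrees of freedom and the further term left fewer, so the part of depth cannot be told from it. In DESeq2's likelihood ratio test the adjusted p was 0.222 for Dusp1 and 0.357 for Egr1, and 176 of 2676 genes were called. Without the libraries numbered 1, Egr1 had an edgeR adjusted p of 0.604 and Dusp1 fell below the count filter.

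**Figure D3:**
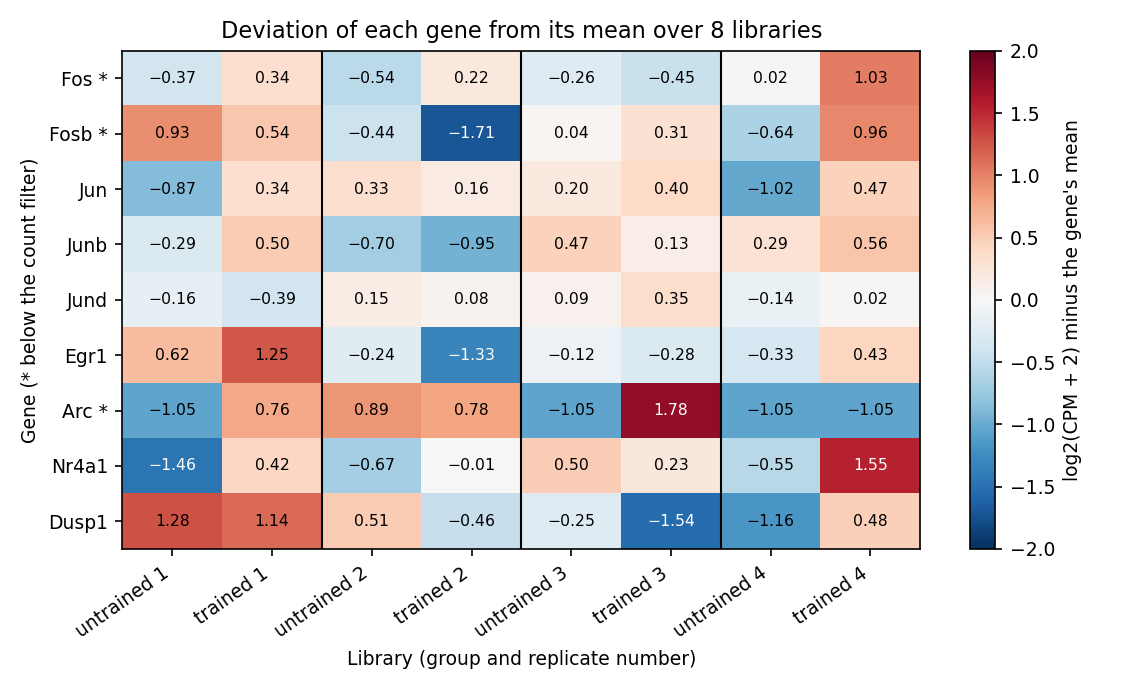
Deviation of log2(CPM + 2) of each gene (rows) from its own mean over the 8 libraries (columns, ordered by replicate number, black lines between numbers), red above and blue below the mean. Egr1 and Dusp1 are red in both libraries numbered 1, Nr4a1 is deepest blue in untrained 1, and trained 4 is above the mean for 8 of the 9 genes.

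Trained 4 and trained 1 were above the median for more of the 9 genes than the other 6 libraries were. Trained 4 held the highest level of 5 of the 9 genes (Fos, Fosb, Jun, Junb and Nr4a1) and was above the median of the 8 libraries for 7, and its total of 212328 UMIs was the second lowest. Of these genes, Fos and Fosb lay below the count filter. Fosb was highest in trained 4 on 2 UMIs (10.8 CPM), against 4 UMIs (10.5 CPM) in untrained 1. Trained 1 was above the median for 8 of the 9 and highest for Egr1. The other libraries were above the median for 2 to 5 genes, with untrained 4 at 2. Over all tested genes, a set without Fos, Fosb and Arc or other genes with so few counts, 48.6% to 51.0% were above their median in a library. Of all tested genes, 16.1% had their highest level in trained 4, more than in any other library, and 10.7% in trained 1. Without Jun and Jund, whose counts outweigh the rest, the summed level was 477 CPM in trained 1 and 452 CPM in trained 4, against 170 to 335 CPM in the other 6 libraries.

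Within same-numbered pairs, the trained library was higher for 6 of the 9 genes in pair 1, for 2 in pair 2, for 4 in pair 3 and for 8 in pair 4, where Arc was at 0 in both. Of all tested genes, a set without Fos, Fosb and Arc, 48.9%, 49.6%, 50.7% and 51.3% were higher in pairs 1 to 4. In pair 4 the difference exceeded a doubling for 3 of the 6 tested genes (Jun, 1.49, Nr4a1, 2.10, and Dusp1, 1.65 on the log2 scale), against 2.15% of all tested genes in that pair. Of the genes below the filter, Fos and Fosb also did, on 7 and 2 UMIs in trained 4. In pair 1 it did so for 2 of the 6 (Jun, 1.21, and Nr4a1, 1.87), against 2.62% of all. In pairs 2 and 3 none of the 6 was higher by more than a doubling, against 2.35% and 5.38% of all. Egr1 in pair 2 (-1.09) and Dusp1 in pair 3 (-1.28) were lower by more than that, as were 3.96% and 5.34% of all. Whether the pairs differed in their response cannot be tested, since each holds 1 library per group. The sources used here do not describe what the rats did before death or how long removal of the cord took, and the part of either in these values was not tested.

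**Figure D4:**
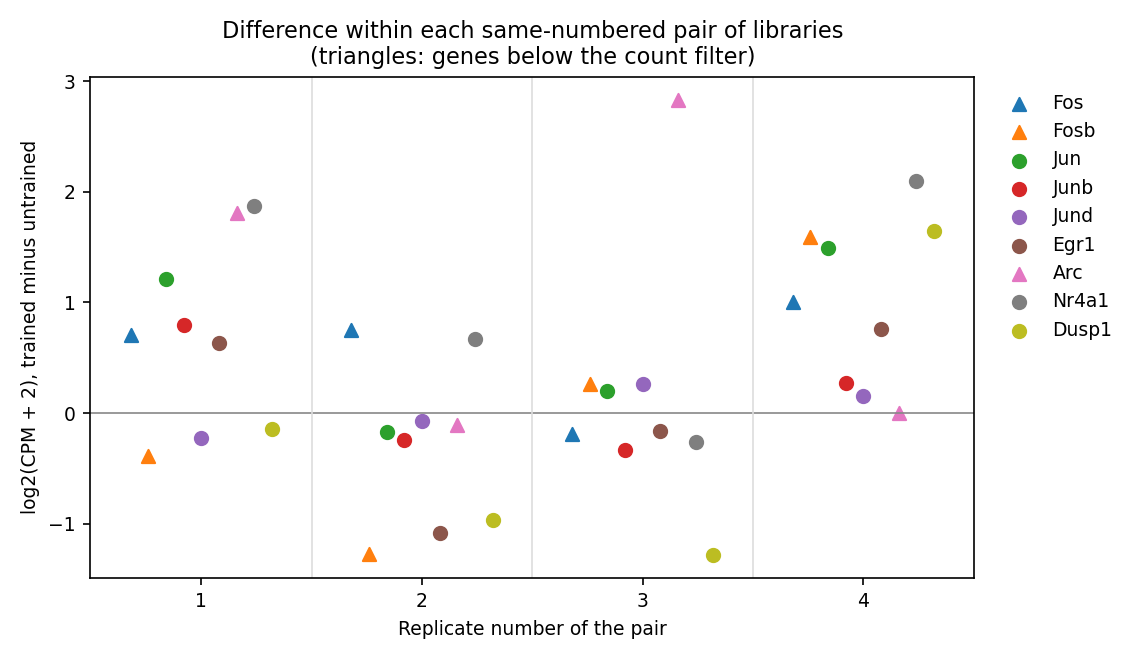
Difference in log2(CPM + 2), trained minus untrained, within each same-numbered pair of libraries, 1 point per gene (circles past the count filter, triangles below it). In pair 4 no gene lies below 0, in pairs 2 and 3 most do, and the difference of Nr4a1 is 1.87 and 2.10 in pairs 1 and 4 against 0.67 and -0.26 in pairs 2 and 3.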

How the data were processed

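CEL-Seq2 libraries (3′-end RNA sequencing with UMIs) were sequenced on an Illumina HiSeq1500, per the labels' protocols. HISAT2 2.0.4, HTSeq 0.6.0 and the build Rnor_6.0 are named in the submitters' processing notes, and the sources used here do not give the UMI length, the strand setting or the annotation release. Raw UMI counts per Ensembl gene, without normalisation, were deposited by the authors. Symbols of the 9 genes come from the list that defined them. The genes and lists were chosen with earlier results of these data known. Planned lists of other activity genes and cell type markers were not analysed here, for want of symbols. By rule, all 9 genes are named, with the 2 genes most like Jund (Fos being below the filter).

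Counts were analysed in R 4.3.3 with edgeR 4.0.16 (filterByExpr, TMM, quasi-likelihood F test, Benjamini-Hochberg over all genes tested, threshold 0.05), checked on simulated data. The filter's level was the CPM worth 10 counts at the median library size, to be reached in at least 4 libraries. It did not ask for 10 counts in each of them. The simulated counts had the same spread for every gene, that of the paired fit (biological coefficient of variation 12.5%, against 23.1% without the block). For training they held no differences between replicate numbers, so that setting was easier than the data. SE is the log2 fold change over the square root of F. Promoter letters are from RefSeq. Alternatives used DESeq2 1.42.0 and limma 3.58.1. Duplicates were looked for by chi-square (2.83 to 5.61 times the degrees of freedom in 12 within-group pairs, so none was found). Deviations from group means correlated at 0.28 to 0.52 between same-numbered libraries across 4086 genes, which are not independent. The main fit did not use these pairs. A second fit, given beside it, had the replicate number as a block.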

Additional observations from a re-analysis of the deposited data

Results flagged for a closer look

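In 18 sets of 4 values (9 genes in 2 groups), 2 had a library set far apart from the other 3 (beyond Dixon's 95% limit). For normally distributed values chance gives about 1 set in 20, a rate that does not hold for sets of few counts. Egr1 in untrained 1, at 104.7 CPM on 40 UMIs, was one, with a gap of 0.833 of the range. Arc in untrained 2, at 5.69 CPM, was the other, and it rests on 2 UMIs against 0 in the other untrained libraries. With 0 in all the others, its gap of 1 (the whole range) was fixed in advance.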

How the results depend on the processing

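Without the block, the count of 0 immediate early genes past the threshold was the same in 18 of 19 alternatives (other scalings, filters, DESeq2, limma-voom, a robust edgeR fit, the replicate block, each library left out). With no filter and the replicate block it was 2 (Jun and Nr4a1), where 18 of 13048 genes passed. The paired count of 0 became 1 without replicate 3 (Nr4a1), where 8 of 4759 genes passed. In paired fits with no filter, chosen after seeing the data, it was 2 without replicate 2 or 3. Of all genes, 17 of 12694 and 28 of 12830 passed there. It was 0 without replicate 1 or 4, where 13 of 12420 and 12 of 12579 genes passed. The count of 2 for the replicate number (Egr1 and Dusp1) became 0 in DESeq2, without replicate 1 and, in a fit chosen after seeing the data, with the library total as a term. Over all genes these fits called 176 of 2676, 510 of 3480 and 216 of 4086. Jun and Nr4a1 stayed positive in every alternative run. Jund, Dusp1, Junb and Egr1 each changed sign in some, among them Egr1 from 0.38 to -0.29 without trained 1. Jund was -0.054 with no scaling factor, -0.00012 with no filter and -0.018 with no filter and the block. With the block it was -0.054 without replicate 3 and -0.018 without replicate 4 (-0.106 and -0.044 with no filter too). Dusp1 was 0.11 in limma-voom, and with the block 0.17 without replicate 2 (0.13 with no filter) and 0.035 without replicate 3. Junb was -0.050 with the block without replicate 1 (-0.071 with no filter, where Egr1 was -0.028). Leaving out 1 library gave -0.084 to 0.159 for Jund, -0.29 to 0.67 for Egr1 and -0.66 to 0.53 for Dusp1. The causes were not tested. At this depth Fos, Fosb and Arc rest on 0 to 9 UMIs a library.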

Other observations

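The genes whose level over the 8 libraries was most like that of Jund, the gene with the highest mean count of the 9, were ENSRNOG00000014986 (Pearson's r = 0.96, Spearman's rho = 0.93) and ENSRNOG00000020442 (r = 0.94, rho = 0.93). They are the highest of 4085 genes compared on log2(CPM + 2) over 8 libraries, which share their depth and scaling, and are given as a description only.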
